A study of Homo sapiens with 8 samples.

Results

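The genes examined were 10 genes of the ATF4 amino acid response: ATF4, ATF5, DDIT3, TRIB3, ASNS, PHGDH, PSAT1, SLC7A11, CHAC1 and VLDLR. They were chosen by name for their known place in this response, with earlier results of these data already known. All 10 were found among the 18638 gene models of the count tables. The assay was factory-seq, which releases nascent RNA from isolated nuclei: chromatin is cut with DNase I, the nuclei are opened in a native buffer, and a caspase mix sets free the RNA bound at sites of transcription. The 8 libraries came from 2 human colorectal cancer cell lines and fell into 4 groups of 2. DLD-1 cells, named DLD-1-mAID-mClover-POLR2A(Tet-OsTIR1), carried an auxin-inducible degron on RPB1, the catalytic subunit of RNA polymerase II. They were either untreated or given 500 µM auxin for 14 h after 24 h of doxycycline. HCT116 cells carried the same degron on topoisomerase TOP2A (TOP2A-mAID) and were untreated in one group. The other group was also TOP2B-/-, and its treatment entry gives the same 500 µM auxin for 14 h after 24 h of doxycycline.

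ATF4 is a transcription factor whose mRNA is translated when the initiation factor eIF2 is phosphorylated, by GCN2 when amino acids run short or by PERK when unfolded proteins gather in the endoplasmic reticulum. It pairs with C/EBP proteins on composite C/EBP-ATF response elements and raises the transcription of genes for amino acid synthesis, amino acid import, tRNA charging and the control of the response itself. Tumour cells are known to use this programme to meet their demand for serine, asparagine and cystine.

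The labels of the TOP2B-/- libraries conflicted, since titles gave ctrl, whereas both the treatment entry and the count columns named auxin. Genotype and auxin therefore cannot be told apart in the HCT116 comparison. TOP2B, checked as the targeted gene, fell from 188.7 ± 4.19 to 133.1 ± 2.09 CPM (counts per 1000000 reads after TMM scaling; SD, n = 2; edgeR adjusted p = 0.027) in the libraries labelled TOP2B-/-, so its RNA was still present. Auxin acts on protein, and POLR2A RNA in DLD-1 had a log2 fold change of -0.78 with an edgeR adjusted p of 0.077. Nothing in the labels says that the 2 libraries of a group were separate cultures, so p-values measure the spread between these libraries, which may be technical. The sources do not say whether G1 sorting was applied or whether untreated cells received doxycycline. Total counts were 10739622 and 14183633 in the auxin libraries and 32129400 to 62626875 in the other 6. Of 8 colon epithelial markers, 5 to 7 per library lay over 3 times the background density (defined below), with EPCAM, CDH1, KRT8, KRT18 and KRT19 among them in all 8 libraries. Of 5 immune markers only CD68 did so, and of 5 fibroblast markers at most 1 did. Summed epithelial marker levels in DLD-1 were 5582 and 7208 CPM without auxin, 3724 and 5180 CPM with it, and 2903 to 5026 CPM in HCT116. Summed levels of the immune list went from 2.88 and 7.46 CPM to 23.6 and 30.3 CPM after auxin, and those of the fibroblast list from 8.13 and 15.7 CPM to 42.0 and 59.0 CPM. Background was not subtracted from these sums, and its share of the reads, given below, was larger after auxin. In both auxin libraries 0 fibroblast markers lay over 3 times background, and of the immune list CD68 alone did, as in the controls. The part of these marker levels in the results was not tested.

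The response element was looked for around the start sites of these genes, because it is the DNA through which ATF4 acts. In RefSeq windows of GRCh38.p14 running from 250 bases before to 50 bases after a start, 9 of the 10 genes were matched (all but SLC7A11), with 16 windows. The letters TGATGNAAN, searched on both strands, occurred in 2 of the 16 windows, those of ASNS and CHAC1, and in 3.61% of all 35116 windows. The palindrome TGACGTCA, a cyclic AMP response element, occurred in 0 of the 16 and in 1.85% of all windows. Both stretches with a match are shown 5′ to 3′ on the strand of their gene, with the match in capitals.
ASNS: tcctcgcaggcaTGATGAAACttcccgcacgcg
CHAC1: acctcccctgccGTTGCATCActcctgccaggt
In ASNS the match lay on the strand of the gene within chr7:97872456-97872488, at positions -68 to -60 relative to the RefSeq start of that window (97872408). That start is 134 bases downstream of the start of the counted ASNS model, so the match lay 66 to 74 bases inside the counted gene. In CHAC1 it lay on the opposite strand within chr15:40953249-40953281, at positions -210 to -202 relative to the RefSeq start of its window (40953471) and at -177 to -169 relative to the start of the counted model. These matches describe letters only, and no binding was measured.

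The first comparison asked how nascent RNA of the response differed after depletion of RPB1 in DLD-1. All 10 genes had lower CPM in both auxin libraries than in both controls, and 7 passed the test: TRIB3, CHAC1, DDIT3, SLC7A11, ASNS, ATF4 and PHGDH. Falls were called for 35.0% of the 17625 genes tested and changes in either direction for 67.3%, by edgeR's quasi-likelihood test at a Benjamini-Hochberg adjusted p under 0.05. Groups that did not overlap were common as well, at 91.0% of all genes tested. The median log2 fold change was -1.21 over the 10 genes and -0.06 over all genes. In bulk libraries, fewer cells transcribing a gene and less RNA per cell cannot be told apart. CPM and log2 fold changes are relative to the other genes of a library, so a change in total nascent RNA would not show in them. Falls and rises below are meant in this relative sense. Without auxin replicate 1, 5 genes were called (TRIB3, CHAC1, DDIT3, ATF4 and SLC7A11), and without auxin replicate 2, 4 were called (TRIB3, CHAC1, DDIT3 and SLC7A11). Over all genes these fits called 13.6% and 18.1%.

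**Figure D1:**
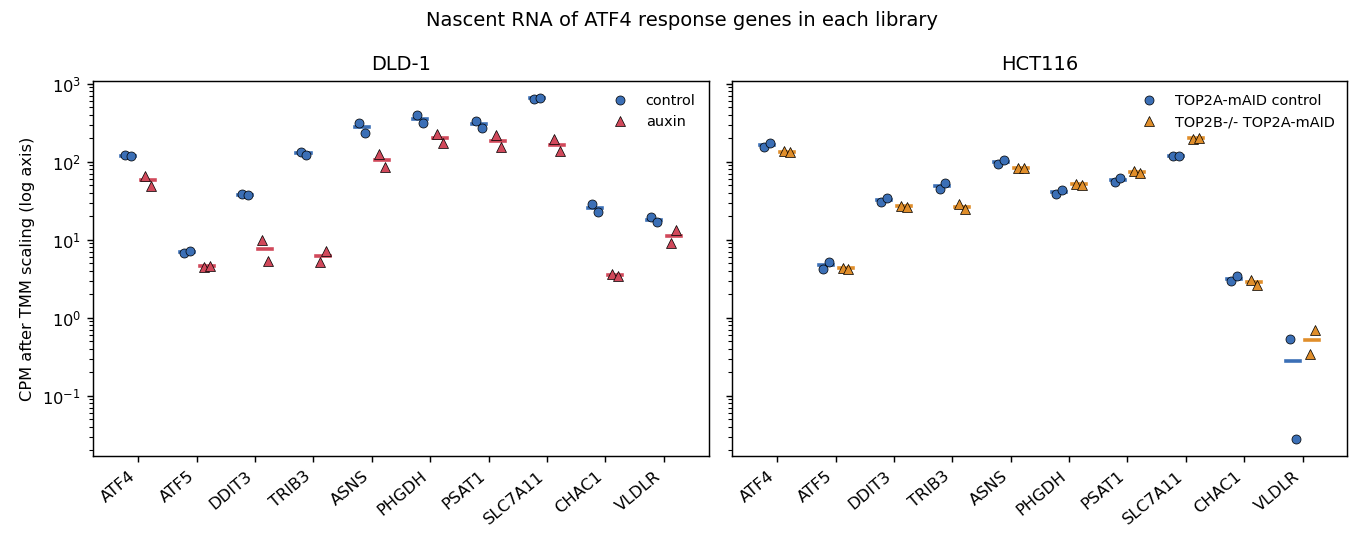
CPM of the 10 genes in each library on a log axis (points, libraries; bars, mean of 2), for DLD-1 on the left and HCT116 on the right. In DLD-1 the auxin points lie below the control points for every gene, with the widest gap for TRIB3, at 135 and 122 CPM in controls against 5.22 and 7.20 CPM after auxin, while in HCT116 the groups lie close together.

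Among the regulators, TRIB3 had the lowest log2 fold change. TRIB3 encodes a pseudokinase that is induced by ATF4 and restrains it in turn. The gene (GRCh38 chromosome 20, 380629 to 397559, plus strand) had 134.8 and 121.5 CPM in the controls and 5.22 and 7.20 CPM in the auxin libraries. In counts this was 6549 and 3714 reads against 90 and 99. Its log2 fold change was -4.37 (SE 0.24, edgeR adjusted p = 0.0042). Both auxin libraries were at the background density described below (1.09 and 1.05 times), so this value is a distance to background.

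DDIT3 encodes CHOP, the C/EBP family factor that drives the later, pro-apoptotic part of the response. On chromosome 12 (57516588 to 57520517, minus strand) it had 38.6 and 37.1 CPM in the controls and 10.0 and 5.31 CPM after auxin. The log2 fold change was -2.30 (SE 0.37, edgeR adjusted p = 0.0099). The auxin libraries differed by 1.89 times from each other, the widest replicate gap of the 10 genes in DLD-1, and still lay well below the controls. The DDIT3 model overlaps MARS on the opposite strand over 68 bp of its 3930 bp span. The counted length leaves out 95 bp, and whether these include the overlap is not stated. Since use of strand is not stated either, reads in the overlap may belong to MARS.

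ATF4 itself, a short gene on chromosome 22 (39520559 to 39522686, plus strand), had 121.7 and 117.5 CPM in the controls and 66.5 and 49.6 CPM after auxin. It fell by 1.04 on the log2 scale (SE 0.20, edgeR adjusted p = 0.016). This is the level of RNA reads over the gene, whereas the known control of ATF4 is mainly at translation, which was not measured here. ATF5, a related factor that is regulated by translation in a similar way (chromosome 19, 49928702 to 49933936, plus strand), had 6.69 and 7.17 CPM in the controls and 4.53 and 4.65 CPM after auxin. Its log2 fold change of -0.59 had a 95% interval of -1.43 to 0.25 and was not called (edgeR adjusted p = 0.154). ATF5 overlaps IL4I1 and NUP62 on the other strand, by 1868 bp summed over both, in a span of 5235 bp, so its reads are uncertain.

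The 3 enzymes of amino acid synthesis were, with SLC7A11, the genes with the highest CPM in DLD-1 controls, and ASNS and PHGDH fell. ASNS, asparagine synthetase (chromosome 7, 97852117 to 97872542, minus strand), has the match of letters shown above. It had 315.6 and 234.9 CPM in the controls and 127 and 85.7 CPM after auxin, and fell by 1.37 on the log2 scale (SE 0.28, edgeR adjusted p = 0.017). PHGDH catalyses the first step of serine synthesis from glycolysis (chromosome 1, 119711796 to 119744226, plus strand). It had 401.3 and 312.2 CPM against 229.4 and 176.1 CPM, and its log2 fold change was -0.82 (SE 0.23, edgeR adjusted p = 0.033).
PSAT1, the aminotransferase that follows it (chromosome 9, 78297075 to 78330093, plus strand), had 335.7 and 272.9 CPM against 217.4 and 152.6 CPM. Its log2 fold change of -0.72 (95% interval -1.36 to -0.08) was not called, with an edgeR adjusted p of 0.051. The groups of all 3 enzymes did not overlap, but replicates of one group differed by 1.23 to 1.48 times.

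SLC7A11 and CHAC1 act on opposite sides of glutathione. SLC7A11 is the light chain of the cystine-glutamate exchanger that brings in cystine for glutathione synthesis, and CHAC1 degrades glutathione. SLC7A11 (chromosome 4, 138164094 to 138242349, minus strand) had the most reads of the 10 genes in DLD-1 controls, with 639.4 and 655.9 CPM, and 196.1 and 136.8 CPM after auxin. It fell by 1.96 on the log2 scale (SE 0.24, edgeR adjusted p = 0.0057). CHAC1 lies on chromosome 15 (40953438 to 40956519, plus strand), and its match to the letters of the response element is shown above. It had 28.4 and 22.8 CPM in the controls and 3.66 and 3.49 CPM after auxin. Its log2 fold change of -2.84 (SE 0.28, edgeR adjusted p = 0.0042) was the second lowest of the 10. Both genes thus had lower nascent RNA after auxin, with groups far apart relative to the gaps between replicates.

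VLDLR encodes a lipoprotein receptor, whose induction under endoplasmic reticulum stress is known to depend on the PERK and ATF4 branch. It lies on chromosome 9 (2621793 to 2654485, plus strand) and was the gene with the lowest level per length. It had 19.4 and 16.9 CPM in the controls and 9.05 and 13.2 CPM after auxin. The log2 fold change of -0.71 (95% interval -1.49 to 0.08) was not called (edgeR adjusted p = 0.088).

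**Figure D2:**
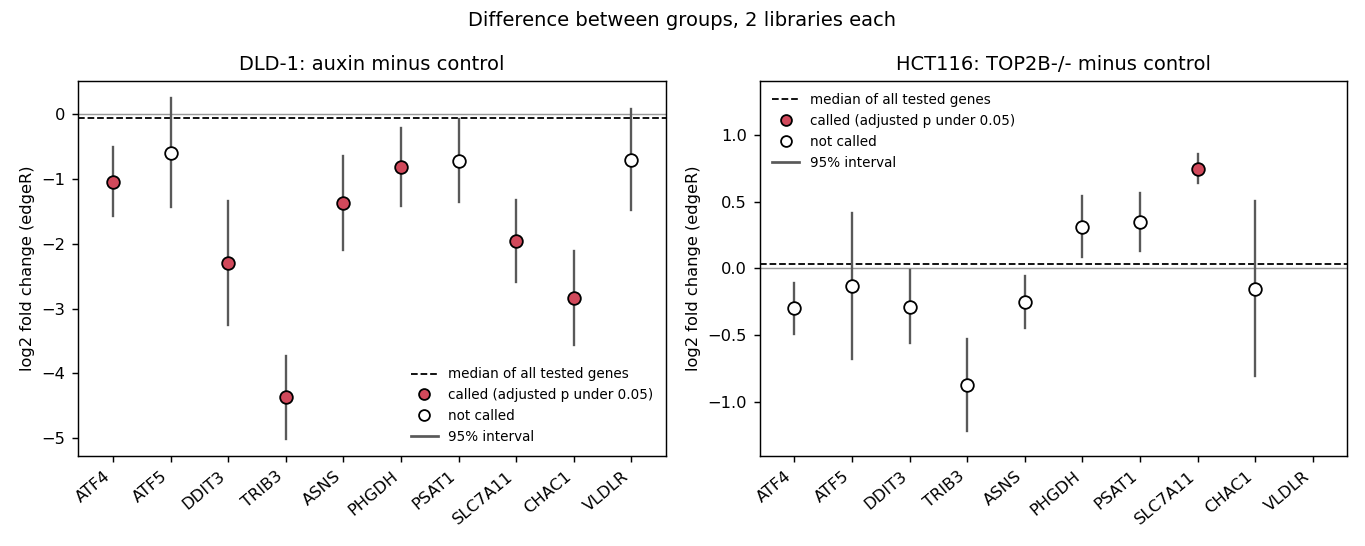
Log2 fold changes from edgeR for the 10 genes in both comparisons, with 95% intervals. Filled points passed an adjusted p under 0.05 and the dashed line is the median of all genes tested. VLDLR is left out of the HCT116 panel because it had 1 to 23 reads per library. The DLD-1 values run from -4.37 (TRIB3) to -0.59 (ATF5), and in HCT116 SLC7A11 at 0.75 was the 1 gene called.

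The auxin libraries held more reads over genes that should be silent, which bears on how far a gene could fall. The background density was the median count per base over 3100 genes with the fewest reads in the other cell line. Extended over all gene models, it came to 2.24% and 9.02% of the total count in DLD-1 controls and to 39.5% and 59.5% after auxin. Over the silent genes themselves, the upper quartile lay at 1.25 and 1.20 times this density after auxin and the 95th percentile at 2.21 and 1.70 times.

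Read against this background, the 10 genes separated widely. TRIB3 stood at 315 and 75.3 times background in the controls and at 1.09 and 1.05 times after auxin. VLDLR stood at 23.5 and 5.43 times in the controls and at 0.97 and 1.00 times after auxin, so neither gene was detectable above background there. ATF4 remained at 110 and 57.3 times, the highest of the 10 in both auxin libraries.
The 3 synthesis enzymes followed at 21.9 to 24.9 times in auxin replicate 1 and 10.3 to 13.4 times in auxin replicate 2. DDIT3 was at 9.22 and 3.41 times, SLC7A11 at 8.82 and 4.30 times, CHAC1 at 4.18 and 2.79 times and ATF5 at 3.09 and 2.22 times. These 4 genes stood above the 95th percentile of the silent genes in both auxin libraries, ATF5 by the smallest margin.

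**Figure D3:**
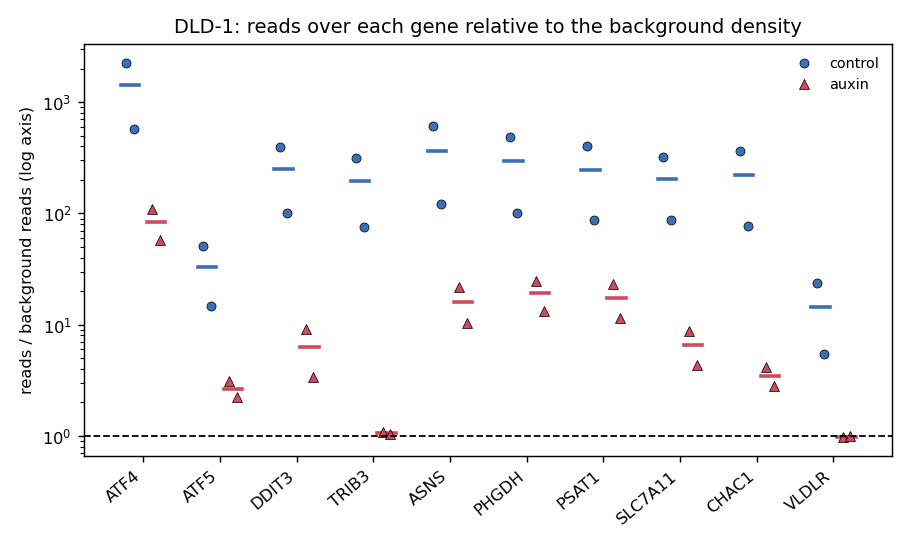
Reads over each gene divided by the reads expected from the background density, per DLD-1 library on a log axis (points, libraries; bars, mean of 2; dashed line, background). After auxin TRIB3 and VLDLR sit on the background line, at 0.97 to 1.09, whereas ATF4 is at 110 and 57.3 times.

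The background was also subtracted from every library before the fit, with a floor of 0. The floor set VLDLR to 0 reads in both auxin libraries, which fixes its direction, so it is not counted. Of the other 9 genes, 4 were called lower and 1 higher, against 28.3% lower and 28.3% higher of the 13165 genes with reads left in both groups. TRIB3 was called lower (edgeR adjusted p = 0.0021) with 7 and 4 reads left after auxin, and no size is given for it. CHAC1 was called lower at -2.01 (SE 0.26, edgeR adjusted p = 0.0075), DDIT3 at -1.33 (SE 0.27, adjusted p = 0.022) and SLC7A11 at -0.92 (SE 0.096, adjusted p = 0.0047). PSAT1 was called higher, relative to the other genes, at 0.50 (SE 0.093, edgeR adjusted p = 0.017), opposite in sign to its value above. PHGDH at 0.43, ATF4 at 0.25, ATF5 at 0.089 and ASNS at -0.16 were not called, and the direction of PHGDH, ATF4 and ATF5 differed from that without subtraction.
Scaling by library totals in place of TMM raised the median over all genes to 0.57 and that of the 10 genes to -0.57. Over all genes the calls went from 6177 lower and 5678 higher to 3377 lower and 7544 higher. TRIB3, CHAC1, DDIT3 and SLC7A11 were then called, all lower, and the log2 fold change of ATF5 became 0.043. The 4 genes TRIB3, CHAC1, DDIT3 and SLC7A11 were thus lower and called under all 3 treatments of the counts, whereas ATF4, PHGDH and PSAT1 changed sign after subtraction and ATF5 under both alternatives.

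**Figure D4:**
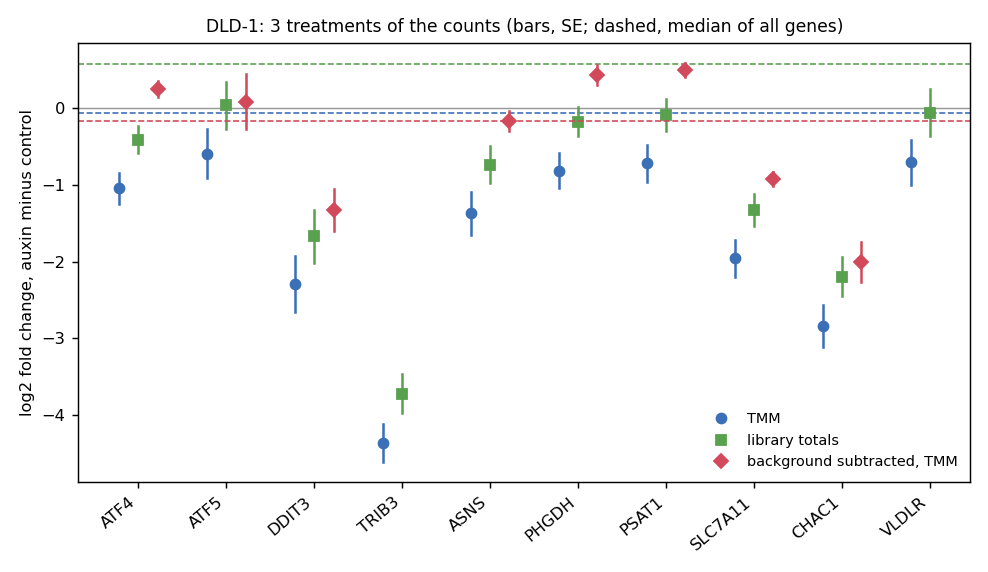
Log2 fold changes of the 10 genes in DLD-1 (auxin minus control) under TMM scaling, library totals and TMM after background subtraction, with SE bars and the median of all genes dashed. TRIB3 and VLDLR have no subtracted value, as at most 7 reads were left after auxin. TRIB3, CHAC1, DDIT3 and SLC7A11 lie below 0 wherever they are drawn, while ATF4, PHGDH and PSAT1 lie above 0 after subtraction, at 0.25, 0.43 and 0.50.

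Other genes of the pathway were counted in 7 lists. Of 64 genes tested in DLD-1, 43 were called lower, 4 higher and 17 were not called, with a median log2 fold change of -1.36. Over all genes tested, 35.0% were called lower and 67.3% in either direction, with a median of -0.06. After background subtraction, 58 genes had reads left in both groups, of which 31 were called lower and 15 higher. The shares over all genes with reads left were then 28.3% lower and 28.3% higher. The median over all 14355 genes tested after subtraction, including those set to 0 in a group, was -0.16. These values over all genes also stand beside the counts of single lists below. Without auxin replicate 1 and without auxin replicate 2, 25 genes were called each time, in fits that called the 13.6% and 18.1% of all genes given above.

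The amino acid transporters had the lowest median, -2.48, with 8 of 9 called lower and 0 higher, and of the 7 with reads left after subtraction 6 were called lower (median -1.45). SLC38A2, a neutral amino acid transporter that is itself induced by amino acid starvation, went from 633 ± 52.8 to 29.5 ± 9.92 CPM (SD, n = 2) and fell by 4.42 on the log2 scale (edgeR adjusted p = 0.0042). The glycine transporter SLC6A9 fell by 3.01 and the glutamine transporter SLC1A5 by 2.97 (edgeR adjusted p = 0.0042 for each). SLC6A9 reached background after auxin, at 0.99 and 0.72 times, while SLC38A2 stayed at 8.77 and 3.78 times.

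Partners of ATF4 and related stress factors had a median of -2.31, with 4 of 5 lower and 1 higher. CEBPB (-2.94), JDP2 (-2.81) and CEBPG (-2.31) encode bZIP proteins that can pair with ATF4 or bind the same elements, and all 3 fell (edgeR adjusted p = 0.0047, 0.0042 and 0.0045). JDP2 lay at background after auxin, at 1.01 and 0.90 times. The gene called higher, ATF3 (0.83, edgeR adjusted p = 0.039), was at 1.98 and 1.12 times background after auxin and was not called after subtraction (adjusted p = 0.447). It was named after its value was seen.

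The cytosolic tRNA synthetases, which charge tRNAs with amino acids, had a median of -1.5, with 9 of 13 lower and 0 higher. GARS (-2.37), TARS (-2.17) and AARS (-2.06) had the largest falls (edgeR adjusted p = 0.0042, 0.0046 and 0.0065). After subtraction the list divided, with 7 lower and 4 higher and a median of -0.32. Of 14 other ATF4 targets, 9 were lower and 2 higher (median -1.66), and of the 10 with reads left after subtraction 8 were lower and 1 higher. GDF15, a secreted stress cytokine, fell by 3.94, and DDIT4, an inhibitor of mTORC1 signalling, fell by 5.13 (edgeR adjusted p = 0.0042 for each). STC2, called higher at 3.0 (edgeR adjusted p = 0.018), was at 0.82 and 0.96 times background after auxin and at 0.99 and 0.56 times in the controls, so it was not detectable above background in any DLD-1 library. The other gene called higher, CTH (0.92, edgeR adjusted p = 0.028), was at 2.78 and 1.74 times background after auxin. CTH was also called higher after subtraction (1.54, edgeR adjusted p = 0.0076), and it was named after its value was seen.

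The serine, proline and one-carbon enzymes had the highest median of the 7 lists, -0.45, with 2 of 7 lower and 1 higher. MTHFD1L, a mitochondrial folate enzyme, fell by 2.53 and PSPH, which completes serine synthesis, by 1.41 (edgeR adjusted p = 0.0042 and 0.0052). MTHFD1L was at 1.78 and 1.26 times background after auxin, under the 95th percentile of silent genes, and PSPH at 2.72 and 1.72 times. ALDH1L2, called higher at 2.33 (edgeR adjusted p = 0.023), lay at 1.15 and 1.01 times background after auxin. After subtraction 2 genes of the list were lower and 4 higher, with a median of 0.77. With library totals its median was 0.19, below the 0.57 over all genes. PHGDH and PSAT1, which are not in this list, went from -0.82 and -0.72 to 0.43 and 0.50 after subtraction.

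Upstream of ATF4, 5 of 7 genes for eIF2 kinases, phosphatase subunits and eIF2 itself were lower and 0 higher (median -0.66), and after subtraction 2 were lower and 4 higher (median 0.33). PPP1R15A encodes GADD34, the stress-induced subunit that returns eIF2 to its unphosphorylated state, and it fell by 2.48 (edgeR adjusted p = 0.0042). EIF2AK4, which encodes the amino acid sensor GCN2, fell by 1.31 (edgeR adjusted p = 0.0058) and was at 1.78 and 1.43 times background after auxin. In the ATF6 and XBP1 arm, the other branches of the unfolded protein response, 6 of 9 were lower and 0 higher (median -0.97). XBP1 fell by 2.51 and HERPUD1 by 2.47 (edgeR adjusted p = 0.0042 for each). After subtraction 2 of these 9 were lower and 2 higher, with a median of 0.14.

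**Figure D5:**
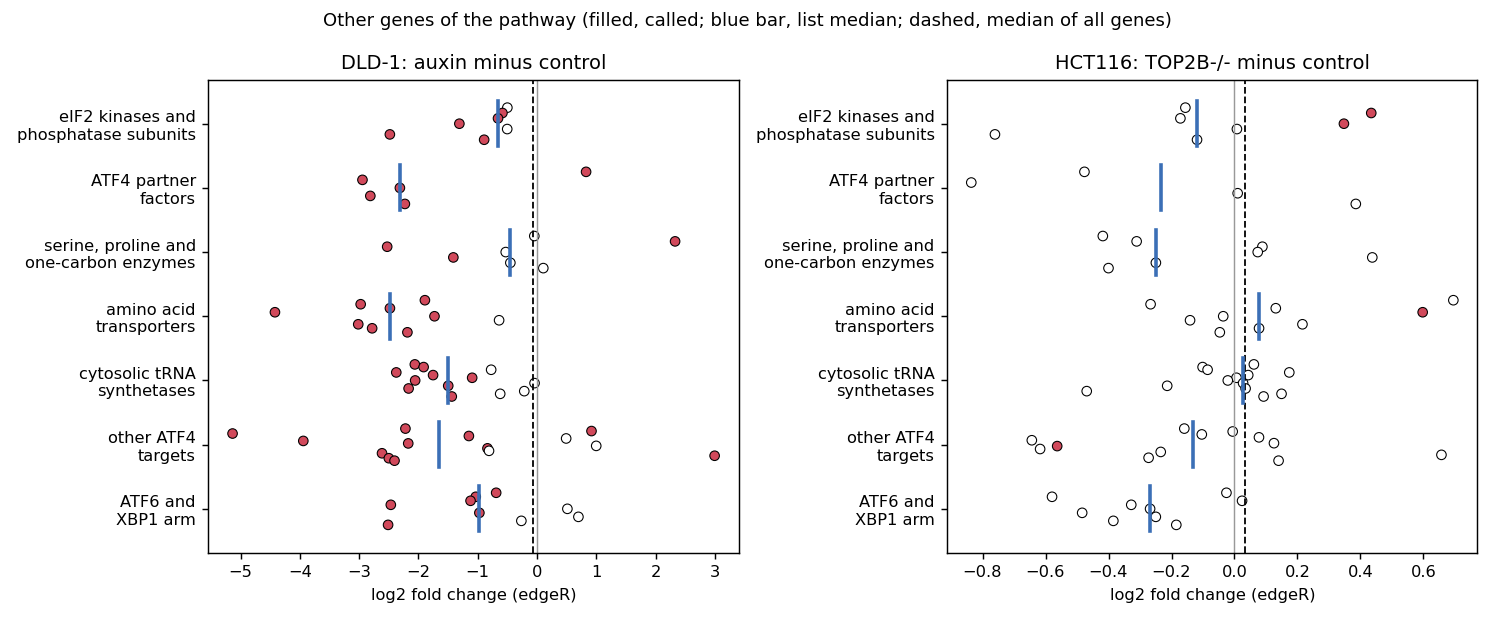
Log2 fold changes of the other pathway genes by list in DLD-1 (left) and HCT116 (right), on axes of different range. Each point is a gene, filled where called, with list medians as blue bars and the median of all genes dashed. In DLD-1 the amino acid transporters have the lowest median (-2.48) and the serine, proline and one-carbon enzymes the highest (-0.45), and in HCT116 the called genes number 4.

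The second comparison set TOP2B-/- TOP2A-mAID against TOP2A-mAID HCT116 cells. Here 1 of the 10 genes was called, SLC7A11, and it rose. Calls made up 3.41% of the 15273 genes tested with edgeR. The median log2 fold change of the 10 genes was -0.14 and that of all genes 0.03. Groups did not overlap for 7 of the 10 genes, with ATF5, CHAC1 and VLDLR the exceptions, against 55.3% of all genes tested.

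SLC7A11 had 118.0 and 119.9 CPM in the controls and 197.6 and 201.5 CPM in the TOP2B-/- libraries. Replicates differed by at most 1.02 times, and the log2 fold change was 0.75 (SE 0.038, edgeR adjusted p = 0.025), a 1.68-fold rise. The rise was 0.72 without TOP2B-/- replicate 1 and 0.73 without TOP2B-/- replicate 2, and it was not called in either case (edgeR adjusted p = 0.210 and 0.255). In both of these fits edgeR called 0 genes in all, with 2266 and 1286 genes at an unadjusted p under 0.05. The 2 tested genes within 1000000 bp of SLC7A11 had log2 fold changes of -0.22 and 0.06, and the median of the 596 other genes of chromosome 4 was 0.17.

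TRIB3 had 45.0 and 52.9 CPM in the controls and 28.7 and 24.7 CPM in the TOP2B-/- libraries. Its log2 fold change was -0.87 (95% interval -1.22 to -0.52), with an edgeR adjusted p of 0.055, and it was not called. Genes of chromosome 20 as a whole were lower in these libraries, with a median of -0.56 over 404 other genes, while the medians of the other autosomes ran from -0.17 to 0.17. Within 1000000 bp of TRIB3 the median of 16 genes was -0.54, and 1 of them was lower than TRIB3. Across chromosome 20, 45 of the 404 genes were lower. The low value of TRIB3 therefore lay in a chromosome that was low in these libraries, and the part of each was not tested.

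The other regulators and the enzymes showed small differences in this line. ATF4 had 155.7 and 173.6 CPM against 135.8 and 132.2 CPM (log2 fold change -0.30, SE 0.068, edgeR adjusted p = 0.111), and DDIT3 had 30.4 and 34.9 CPM against 27.2 and 26.3 CPM (-0.29, SE 0.098, adjusted p = 0.205). ASNS had 92.9 and 104.3 CPM against 83.6 and 82.3 CPM (-0.25, SE 0.070, edgeR adjusted p = 0.152). All 3 were lower in both TOP2B-/- libraries and did not pass the test.
PHGDH, with 38.6 and 44.2 CPM against 51.8 and 51.0 CPM, and PSAT1, with 54.5 and 61.8 CPM against 75.4 and 72.4 CPM, were higher in both TOP2B-/- libraries. Their log2 fold changes of 0.31 (SE 0.081) and 0.34 (SE 0.078) did not pass the test (edgeR adjusted p = 0.135 and 0.107).
CHAC1 had 2.94 and 3.41 CPM against 3.06 and 2.66 CPM (log2 fold change -0.15, 95% interval -0.80 to 0.50), and ATF5 had 4.25 and 5.19 CPM against 4.34 and 4.27 CPM (-0.13, 95% interval -0.68 to 0.41). The groups of both overlapped. VLDLR had 18 and 1 reads in the controls and 12 and 23 in the TOP2B-/- libraries, at 0.36 to 1.06 times background, so it was not detectable above background in HCT116.

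The number of calls in HCT116 depended on the method. VLDLR had no adjusted p with DESeq2 and was not tested after background subtraction, which left 9 of the 10 genes in each. DESeq2 called 4 of these 9, against 15.3% of 12105 genes with an adjusted p: SLC7A11 (0.73, DESeq2 adjusted p = 1.29e-29), TRIB3 (-0.88, 5.03e-06), ATF4 (-0.31, 0.0047) and PSAT1 (0.33, 0.032). After background subtraction edgeR called 6 of the 9, with TRIB3, ATF4 and DDIT3 lower and SLC7A11, PSAT1 and PHGDH higher, in a fit that called 16.9% of all genes. Without control replicate 1 it called 5, with TRIB3, ATF4, DDIT3 and ASNS lower and SLC7A11 higher, against 16.0% of all genes.

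Of 61 other pathway genes tested in HCT116, where edgeR called 3.41% of all genes, 1 was called lower and 3 higher. The other 57 were not called (median of the 61 genes -0.05, against 0.03 over all genes). The calls numbered 20 without control replicate 1, where 16.0% of all genes were called, and 0 without TOP2B-/- replicate 1 or replicate 2. SLC38A2 rose from 509.6 ± 36.7 to 771 ± 2.76 CPM (SD, n = 2), by 0.60 on the log2 scale (edgeR adjusted p = 0.035). Among the eIF2 kinases, EIF2AK2, which encodes the double-stranded RNA sensor PKR, rose by 0.43 and EIF2AK4 by 0.35 (edgeR adjusted p = 0.037 and 0.042). KLHL24 fell by 0.56 (edgeR adjusted p = 0.045). The tRNA synthetases (13 tested), the serine, proline and one-carbon enzymes (7), the ATF4 partners (4) and the ATF6 and XBP1 arm (9) had 0 calls with edgeR, against 1, 3, 2 and 2 with DESeq2. Before adjustment 4, 3, 3 and 4 of their genes had an edgeR p under 0.05. Among the ATF4 partners, CEBPB lies on chromosome 20, which was low in these libraries, and the part of this in the counts was not tested.

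Levels per length, in CPM per kb of counted span, set ATF4 far above the other 9 genes in both lines. Counted spans ran from 2128 bp for ATF4 to 78256 bp for SLC7A11, with exons and introns counted together. The part of any mature RNA in these levels was not tested. In DLD-1 controls ATF4 was at 56.2 ± 1.39 (SD, n = 2). ASNS (13.5 ± 2.79), PHGDH (11.0 ± 1.94), DDIT3 (9.87 ± 0.27), PSAT1 (9.22 ± 1.34), CHAC1 (8.31 ± 1.28) and SLC7A11 (8.28 ± 0.15) followed, each overlapping its neighbour in this order. TRIB3 (7.57 ± 0.55), ATF5 (1.34 ± 0.065) and VLDLR (0.56 ± 0.053) came last and did not overlap their neighbours. TRIB3, at 7.96 and 7.18, did overlap CHAC1, at 9.22 and 7.41.
In HCT116 controls ATF4 was at 77.4 ± 5.97 CPM per kb, followed by DDIT3 (8.50 ± 0.83), ASNS (4.83 ± 0.39), TRIB3 (2.89 ± 0.33), PSAT1 (1.76 ± 0.16), SLC7A11 (1.52 ± 0.016), PHGDH (1.28 ± 0.12), CHAC1 (1.03 ± 0.11) and ATF5 (0.91 ± 0.13). Of these neighbours only CHAC1 and ATF5 overlapped. In the TOP2B-/- libraries SLC7A11 (2.55 ± 0.035) moved ahead of PSAT1 (2.24 ± 0.064), and TRIB3 (1.58 ± 0.17) came to overlap PHGDH (1.58 ± 0.019).

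The rank among all gene models was also read within each library. ATF4 had a percentile of CPM per kb between 99.4 and 99.8 in all 8 libraries. TRIB3 had percentiles of 96.0 and 96.1 in DLD-1 controls and of 27.6 and 31.3 after auxin, and CHAC1 of 96.7 and 96.3 against 78.9 and 82.6. SLC7A11 had percentiles of 71.6 and 70.2 in HCT116 controls and of 82.4 and 83.8 in the TOP2B-/- libraries. The cell lines were counted in separate tables, and no test was made between them.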

How the data were processed

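Nascent RNA from 8 factory-seq libraries was analysed. The authors deposited raw read counts per RefSeq gene model, introns included, in 1 table per cell line. The submitters' processing notes name STAR, DESeq2 and hg38, with no settings; the sources used here give neither the use of strand nor versions. The authors' comparison tables hold fold changes, p-values and normalized values and were not used. Every column of read counts could be assigned to a sample by name, and 0 were left out. The supplied paper describes another experiment and gave no design.

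Fits were made per cell line on 4 libraries (2 residual degrees of freedom) with edgeR 4.0.16 in R 4.3.3: filterByExpr, TMM scaling, two-sided quasi-likelihood test, and Benjamini-Hochberg adjustment over all genes at 0.05. SE and 95% intervals were derived from the F statistic. CPM are TMM-scaled. The scripts were tested on simulated data. Counting error alone is small for most genes, and replicate spread over 2 libraries limits the precision.

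Silent genes were those of at least 5000 bp in the lowest 20% of reads per kb, per chromosome, in controls of the other line, leaving out chromosome Y and all listed genes. Their median density times counted length gave the background, which was subtracted with a floor of 0 in an alternative. Other alternatives were DESeq2 1.42.0, RLE scaling, library totals, no count filter, a mean CPM of at least 5, leaving out each replicate, a replicate block, a fit without chromosome 20 and a fit of all 8 libraries. A crossed block was chosen after seeing the data. With a replicate left out, the spread of the lone library was taken from the other group.

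The 10 genes and all lists were chosen with earlier results of these data known. All 10 genes are described, and of each list up to 3 called genes with the largest absolute log2 fold change may be named.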

Additional observations from a re-analysis of the deposited data

How the results depend on the processing

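In DLD-1, of 129 results for single genes under alternative settings, 107 kept their direction and their side of the threshold, 12 lost and 5 gained a call, and 5 reversed. The reversals were ATF4 (0.25), ATF5 (0.089), PHGDH (0.43) and PSAT1 (0.50) after background subtraction and ATF5 (0.043) with library totals. Of the 10 genes, 7 were called, against 4 with library totals and 4 to 8 when a replicate was left out. The 47 called pathway genes became 25 to 45 when a replicate was left out, lowest without either auxin library. In HCT116, of 136 such results 111 kept both, 4 lost and 20 gained a call, and VLDLR reversed without control replicate 2 (-0.10, with 4.04 as the highest value when a replicate was left out). Of the 10 genes, 1 was called in HCT116, against 2 with RLE scaling, 2 with library totals and 0 in the fit of all 8 libraries. Fewer of them were tested in 3 settings. There the calls were 4 of 9 with DESeq2, 5 of 7 at a mean CPM of at least 5 and 6 of 9 after background subtraction. Fits without control replicate 1 or a TOP2B-/- replicate are described above. The number of called pathway genes went from 4 to 16 with DESeq2, 8 with library totals and 2 with no count filter. It was 12 at a mean CPM of at least 5, 16 after background subtraction and 0 with all 8 libraries. It was 1 in the fit without chromosome 20, although the 4 genes called in the main fit lie on chromosomes 2, 3, 12 and 15. The fit of all 8 libraries in edgeR called 5 genes in all for HCT116, with 1196 at an unadjusted p under 0.05. Over all genes in HCT116, 521 of 15273 were called in the main fit, 1849 of 12105 with DESeq2 and 591 with RLE scaling. Library totals called 734, no count filter 424 of 18041, and a mean CPM of at least 5 called 1221 of 11174. Background subtraction called 2296 of 13572, and the fit without chromosome 20 called 229 of 14869. Fewer genes or samples entered the filtered and reduced fits, and otherwise the cause was not tested. A correlation of 0.56 in DLD-1 and -0.82 in HCT116 between deviations of same-numbered libraries did not establish a pairing. With the replicate block, DLD-1 had 8 of the 10 genes and 54 pathway genes called, where edgeR called 12963 of all 17625 genes. HCT116 with the same block had 0 and 0, where edgeR called 0 of all genes with 2177 at an unadjusted p under 0.05. The crossed block, chosen after seeing the data, called 6 and 38 in DLD-1 and 3 and 13 in HCT116. Over all genes it called 8175 of 17625 in DLD-1 and 1808 of 15273 in HCT116.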
